A study of Mus musculus with 6 samples.

Results

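The class I antigen processing genes described here are the 10 rows of the count table whose Ensembl identifiers carry the symbols *H2-K1*, *H2-D1*, *B2m*, *Tap1*, *Tap2*, *Tapbp*, *Psmb8*, *Psmb9*, *Psmb10* and *Nlrc5* on GRCm38. They are 10 of 47729 genes in the table, and all 10 passed the filter of a mean of at least 20 reads that left 19308 genes to test. RNAseq was run on the proximal tibial epiphyses (cartilage of the growth plate and joint surface with the bone and marrow next to it) from 3 mice of the Control line and 3 of the LS1 line at an age of 14 days. The LS1 line of Longshanks mice was selected for a long tibia at a given body mass. Control is the random-bred line of the same CD-1 background, given as ICR in the labels. Both lines were otherwise untreated, the mice of a group came from different families, and the epiphyses of both legs of a mouse were pooled into 1 library. LS1 is a single selected line, so a difference from Control cannot be told apart from drift in that line. Replicates were numbered by order within a group.

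Class I molecules show peptides from inside the cell to cytotoxic T cells. Proteins are cut by the proteasome, and interferon replaces its constitutive catalytic subunits with the immunoproteasome subunits encoded by *Psmb8*, *Psmb9* and *Psmb10*. The peptides are carried into the endoplasmic reticulum by the TAP1-TAP2 transporter, loaded with the help of tapasin (*Tapbp*) onto a heavy chain such as H2-K1 or H2-D1, and displayed with beta-2-microglobulin. NLRC5 is a transactivator that acts on class I promoters, and interferon raises most genes of this pathway in many cell types, bone and marrow cells included.

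Of the 10 genes, 7 lie on chromosome 17, within or beside the mouse major histocompatibility complex. *B2m* is on chromosome 2 (122147686 to 122153083, plus strand), while *Psmb10* (105935735 to 105938444, minus strand) and *Nlrc5* (94434356 to 94527272, plus strand) are on chromosome 8. On chromosome 17 the order is *Tapbp* (33915899 to 33929292), *H2-K1* (33996017 to 34000347, minus strand), *Psmb9* (34181987 to 34187764, minus strand), *Tap1* (34187553 to 34197225), *Psmb8* (34197721 to 34201454), *Tap2* (34203527 to 34216321) and *H2-D1* (35262730 to 35267499), on the plus strand where no strand is given. *Tap1* and *Psmb9* run in opposite directions from starts 226 bases apart in RefSeq, and their annotated exons overlap there. *H2-K1* and *H2-D1* share long, near-identical coding stretches with each other and with the Q and T region genes. Their counts are therefore uncertain to the extent that reads could be assigned to the wrong copy. Reads of these CD-1 mice were mapped to the GRCm38 reference, so alleles unlike the reference could also change the counts of a mouse. This was not tested. Use of strand in the counting was not stated, and 8 of the 10 genes overlap another annotated gene.

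The promoters are shown because class I genes are known for a shared module upstream of the start. Their part in the values described further on was not tested. RefSeq promoters of GRCm38.p6 (250 bases before to 50 bases after the start) matched 8 of the 10 symbols, with none for *Tap2* and *Nlrc5*. For *H2-K1*, with 2 starts listed, the first was used. The stretches below lie at chr17:34000348-34000497 (minus strand), chr17:35262993-35263022 (plus strand, inside an annotated first exon of *H2-D1* and therefore cut to the module alone) and chr2:122147536-122147685 (plus strand). Capitals mark matches to GAANNGAAA or GAAANNGAA, the half-site pairs of interferon regulatory factor sites, to TGACG, the core of the cyclic AMP response element, and to CCAAT, the NF-Y box, on either strand.
H2-K1: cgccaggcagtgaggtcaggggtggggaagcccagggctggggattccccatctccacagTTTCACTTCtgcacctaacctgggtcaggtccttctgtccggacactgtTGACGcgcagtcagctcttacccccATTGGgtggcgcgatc
H2-D1: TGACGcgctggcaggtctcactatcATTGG
B2m: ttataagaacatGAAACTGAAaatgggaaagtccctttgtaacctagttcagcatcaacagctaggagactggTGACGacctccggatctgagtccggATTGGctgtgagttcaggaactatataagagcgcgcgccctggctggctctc
In all 3 sequences TGACG was followed after exactly 20 bases by ATTGG, the reverse strand of CCAAT. This spaced pair ran from -41 to -12 relative to the start in *H2-K1*, from -101 to -72 in *H2-D1* and from -78 to -49 in *B2m*. The spacing was chosen after these sequences had been seen. It occurred in 26 of 27025 gene promoters (0.0962%), among them that of *H2-M3*, another class I heavy chain. Single elements of the module were common, with TGACG in 21.0%, CCAAT in 37.9%, GAANNGAAA in 7.56% and GAAANNGAA in 8.57% of promoters. GAANNGAAA was found in *H2-K1* and *H2-D1*, and GAAANNGAA in *B2m*. The gamma-interferon type element TTCNNNGAA, present in 8.47% of promoters, was found in *Psmb8* alone among the 8. TGACG was also found in *Tap1* and *Psmb9*, and CCAAT in *Tap1*, *Tapbp* and *Psmb9*. The promoters of *Tap1* and *Psmb9* overlap, and the match of each kind lies on the same bases in both. These are matches of letters and not measured binding sites.

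The values below are normalized read counts, the reads of a gene divided by the size factor of the library. Libraries held 68803249 to 88745366 reads, every LS1 library more than any Control library. The sampled tissue showed its labelled makeup, since *Col2a1* of cartilage stood at 1344210 to 2086280 and *Col1a1* of bone at 1778580 to 2495230 in every library. *Xist*, from the inactive X chromosome, was at 70194 or more in Control replicates 1 and 2 and LS1 replicate 2 and at 221 or less in the other 3 libraries. *Ddx3y*, on the Y chromosome, had the opposite pattern (32.1 to 39.4 against 6723 to 12856). The groups were thus unequal in this respect, and the labels do not give sex.

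LS1 replicate 2 was the highest library for each of the 10 genes, at 2.19 to 21.3 times the Control mean. LS1 replicate 1 was higher than every Control library for 8 of the 10, and at 1.85 times the Control mean or more for 5 of them. LS1 replicate 3 lay close to Control, at 0.763 to 1.31 times the Control mean. No gene passed the adjusted threshold in limma, the test used for the comparison, so the LS1 group as a whole was not separated from Control beyond the spread between its own mice. The median log2 fold change of the 10 genes was 0.88, against 0.01 over all tested genes, and it was 0.40 without LS1 replicate 2 and 1.26 without LS1 replicate 3. Each of the 10 fold changes was smaller without LS1 replicate 2, from -0.06 for *Tapbp* to 1.48 for *Nlrc5*.

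**Figure D1:**
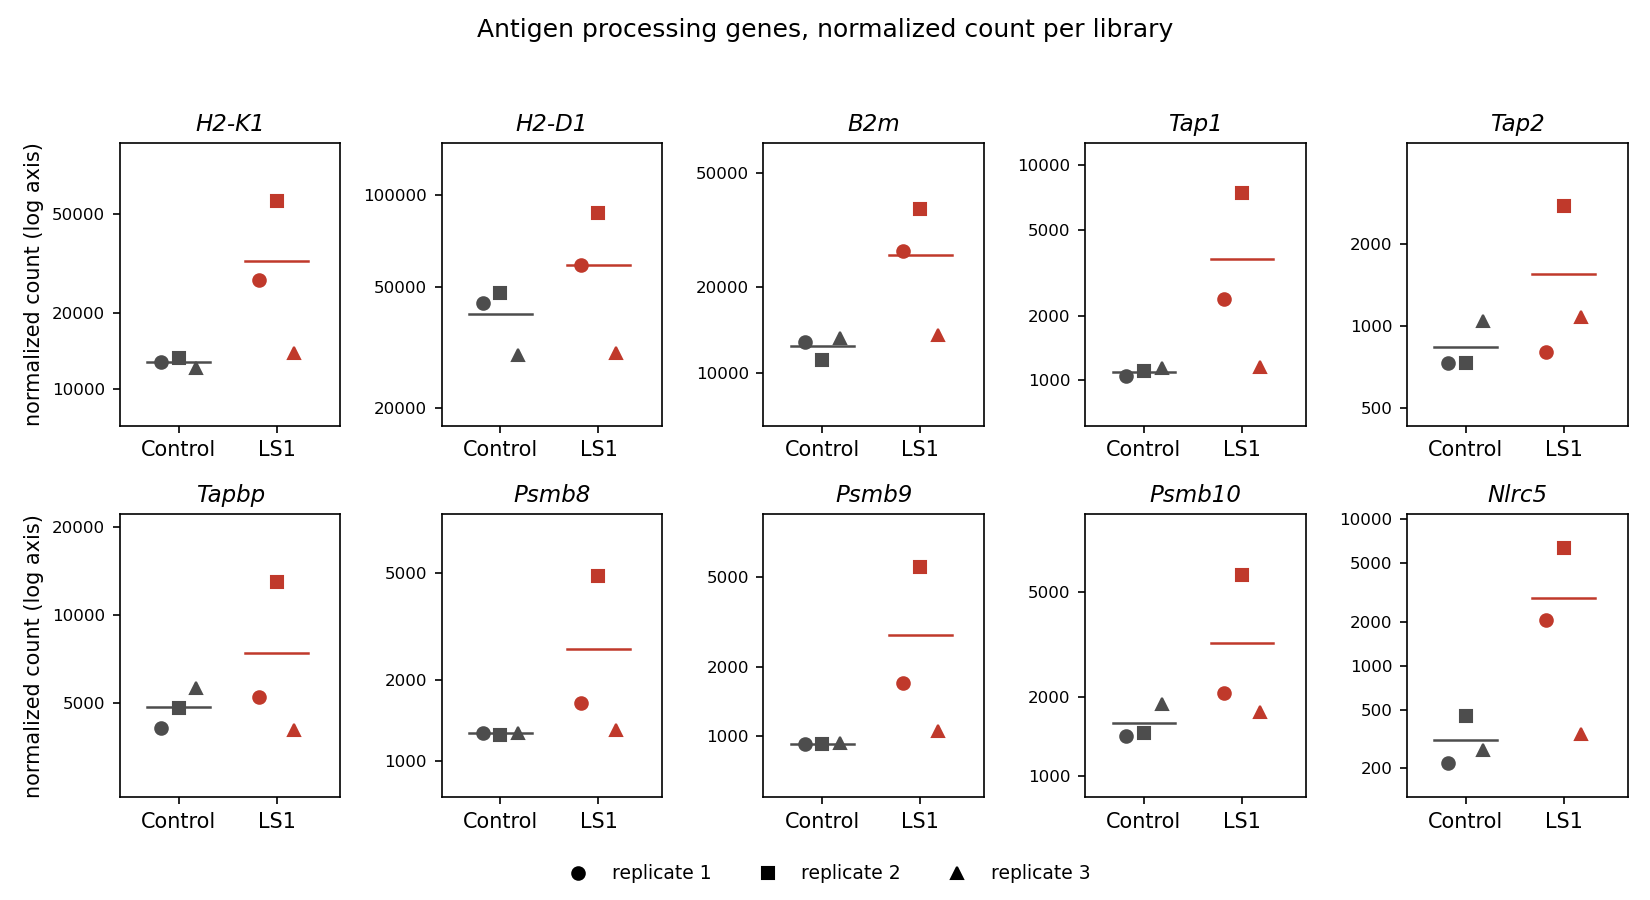
Normalized count (log axis) of each of the 10 genes in the 3 Control and 3 LS1 libraries, with symbols for replicates and a horizontal line at the arithmetic mean of each group. LS1 replicate 2 is the top point in every panel, and LS1 replicate 3 lies near the Control libraries (*H2-K1* 56190 and 13964 against 12148 to 13347).

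*Nlrc5*, the transactivator, had the widest range. Its normalized counts were 215.9, 456.7 and 266.6 in Control and 2044, 6357 and 339.5 in LS1 replicates 1 to 3. LS1 replicates 1 and 2 lay 6.85 and 21.3 times above the Control mean, whereas LS1 replicate 3 fell between Control libraries. The log2 fold change was 2.46 ± 1.21 (SE, n = 3 per group), with an adjusted p-value of 0.485 in limma.

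*H2-K1* encodes one of the classical heavy chains. Its normalized counts were 12840, 13347 and 12148 in Control and 27299, 56190 and 13964 in LS1. Each LS1 library exceeded each Control library, the last by a small margin. The log2 fold change of 1.12 ± 0.50 did not pass the threshold (limma, adjusted p-value 0.433), and it became 1.62 with an adjusted p-value of 0.0189 in limma without LS1 replicate 3 and 0.61 with an adjusted p-value of 0.421 without LS1 replicate 2.

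*H2-D1*, the other classical heavy chain, had 44285, 47733 and 29806 normalized counts in Control and 58949, 87147 and 30363 in LS1. The third replicate of each group was the low one, so that LS1 replicate 3 sat below Control replicates 1 and 2. This gave a log2 fold change of 0.44 ± 0.40 (limma, adjusted p-value 0.684).

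*B2m*, the invariant light chain, had 12831, 11116 and 13209 normalized counts in Control. The LS1 libraries had 26623, 37371 and 13507, all above Control. The log2 fold change was 0.94 ± 0.34 (limma, adjusted p-value 0.326). DESeq2 on the recovered reads gave 1.05 ± 0.28 with an adjusted p-value of 0.0127, and *B2m* was the only member it called. This call was lost in DESeq2 without Control replicate 1 (1.08, adjusted p-value 0.106), a fit with fewer Control mice and a similar log2 fold change. In simulated data for this comparison, with genes drawn independently, 18.7% of the calls of DESeq2 were false, a share that need not hold here. In limma the value was 1.35 (adjusted p-value 0.0023) without LS1 replicate 3 and 0.62 (adjusted p-value 0.427) without LS1 replicate 2.

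*Tap1*, the transporter subunit, was even among Control mice, at 1045, 1104 and 1141 normalized counts. In LS1 it stood at 2391, 7466 and 1158. The libraries did not overlap between groups, but LS1 replicate 3 exceeded the highest Control library by a few counts only. On the log2 scale the difference was 1.32 ± 0.71 (limma, adjusted p-value 0.504).

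*Tap2*, the partner subunit, had 734.5, 733.9 and 1044 normalized counts in Control and 800.8, 2759 and 1080 in LS1. Here only LS1 replicate 2 stood clear of Control, and LS1 replicate 1, which was high in *Tap1*, was at 0.970 times the Control mean. Its log2 fold change was 0.69 ± 0.43 (limma, adjusted p-value 0.538).

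*Tapbp*, the loading chaperone tapasin, had 4084, 4785 and 5608 normalized counts in Control and 5238, 12965 and 4046 in LS1. The groups overlapped, and LS1 replicate 3 was the lowest of the 6 libraries. The log2 fold change of 0.44 ± 0.44 (limma, adjusted p-value 0.711) turned to -0.06 without LS1 replicate 2.

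*Psmb8* had 1271, 1253 and 1276 normalized counts in Control, a spread of 12.5 (SD), and 1649, 4849 and 1303 in LS1. *Psmb9* was as even, at 915.1, 920.2 and 925.8 in Control, and stood at 1703, 5527 and 1045 in LS1. For both genes every LS1 library was above every Control library. *Psmb10*, on another chromosome, had 1419, 1458 and 1884 normalized counts in Control and 2066, 5767 and 1754 in LS1, and its groups overlapped. The log2 fold changes of the 3 immunoproteasome subunits were 0.79 ± 0.47, 1.22 ± 0.61 and 0.81 ± 0.45, with adjusted p-values of 0.530, 0.476 and 0.498 in limma.

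**Figure D2:**
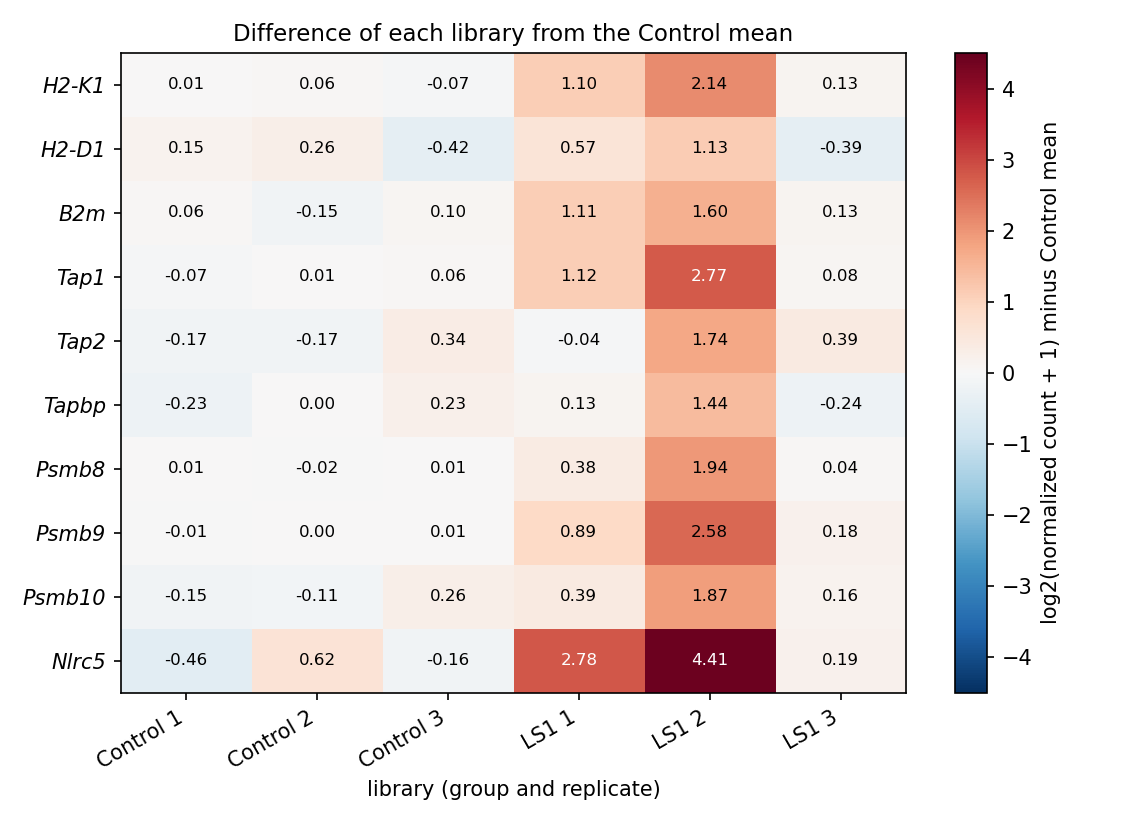
Difference of each library from the Control mean, as log2(normalized count + 1), for the 10 genes (rows) in the 6 libraries (columns). LS1 replicate 2 is above the Control mean in every row (1.13 for *H2-D1* to 4.41 for *Nlrc5*). LS1 replicate 1 is above it in 9 of the 10 rows (2.78 for *Nlrc5*), all but *Tap2* (-0.04). LS1 replicate 3 differs by at most 0.39 in either direction.

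Counted together, 0 of the 10 genes passed the adjusted threshold in limma, where 0.0725% of all tested genes did (14 of 19308). At an unadjusted p under 0.05, 1 of the 10 (*B2m*) was higher in LS1, against 7.08% of all tested genes. DESeq2 called 1 of the 10, against 2.36% of all genes, and edgeR called none. Every LS1 library exceeded every Control library for 5 of the 10 genes (*H2-K1*, *B2m*, *Tap1*, *Psmb8* and *Psmb9*), against 10.3% of all genes. Without LS1 replicate 3, 2 of the 10 passed in limma, *H2-K1* and *B2m*, against 1.68% of all genes.

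Library by library, all 10 genes were at least 1 log2 unit above the Control mean in LS1 replicate 2, against 4.35% of all genes in that library. In LS1 replicate 1 this held for 4 genes (*H2-K1*, *B2m*, *Tap1* and *Nlrc5*) against 4.03% of all genes, and in LS1 replicate 3 for none against 2.55%. In LS1 replicate 1 *H2-K1* (2.14 times the Control mean), *B2m* (2.16) and *Tap1* (2.18) were close to each other, *Psmb9* was at 1.85 and *H2-D1* at 1.48. *Psmb8* (1.30) and *Psmb10* (1.31) were above every Control library by less, and *Tapbp* (1.09) and *Tap2* (0.970) lay within the Control range. The last 4 genes were at 2.71 to 3.83 times the Control mean in LS1 replicate 2.

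LS1 replicate 2, the highest for all 10 genes, was the only LS1 library with *Xist*, and it exceeded both Control libraries with *Xist* in all 10. LS1 replicates 1 and 3 and Control replicate 3 had *Ddx3y*. With 6 mice the part of sex in these values was not tested apart from line, other than by a covariate. With log2 *Ddx3y* as a covariate in limma, a fit added after the data were seen, the median log2 fold change was 1.10 and 0 of the 10 genes passed.

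Across the 6 libraries the 10 genes varied together. The Pearson r between log2 values of pairs of these genes ran from 0.527 (*H2-D1* with *Tap2*) to 0.996 over 45 pairs, with a median of 0.915. Only 6 points lie behind each correlation, and 1 of them, LS1 replicate 2, was the highest for all 10 genes. The profile of *Tap1* was closest to the mean profile of the 10 genes (r = 0.998) and that of *H2-D1* farthest (r = 0.853). Outside the lists, the genes most like the mean profile were *Tor3a* (r = 0.995), *Slfn8* (0.994), *Parp12* (0.992), *Themis2* (0.988) and *Asb13* (0.986), all with 6 libraries. *Slfn8* stood at 267.4, 296.0 and 341.8 normalized counts in Control and 658.0, 1819 and 333.0 in LS1, and *Parp12* at 1554, 1439 and 1467 and then 2271, 4262 and 1444. None of these 5 passed the adjusted threshold in limma (0.357 for *Tor3a* to 0.511 for *Asb13*).

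Levels can be compared between genes only per length, here as RPKM. These are the reads per length of merged exons and per library total, computed from the recovered reads. Merged exons take in every annotated transcript, so their length can exceed that of the RNA present. They measure 1705 bases for *Psmb10*, 3381 for *Psmb8* and 3660 for *Psmb9*. The order of genes therefore depends on the annotation, and the SD gives only the spread between mice. In Control the levels were 204 ± 49.8 for *H2-D1* and 186 ± 14.8 for *B2m* (SD, n = 3), which did not differ beyond their spread. *H2-K1* followed at 56.4 ± 3.31, *Tapbp* at 17.2 ± 2.61, *Psmb10* at 12.0 ± 1.84, *Psmb8* at 4.85 ± 0.016 and *Psmb9* at 3.26 ± 0.034. *Tap2* (2.87 ± 0.58) and *Tap1* (2.59 ± 0.11) overlapped, and *Nlrc5* was the least abundant at 0.479 ± 0.20. In LS1 replicate 2 the RPKM of *B2m* (562.7) was above that of *H2-D1* (437.5), *Psmb9* (19.6) was above *Psmb8* (18.6), *Tap1* (17.7) was above *Tap2* (9.45), and *Nlrc5* reached 9.69.

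Ratios of counts within a library do not depend on the size factor, and 6 of them were compared by exact two-sided permutation tests over the 6 libraries. With 3 mice per group the smallest p they can give is 0.1, so none could reach 0.05. The first set each immunoproteasome subunit against the constitutive subunit whose place it takes. *Psmb8* over *Psmb5* was 0.665, 0.527 and 0.464 in Control and 0.764, 2.20 and 0.467 in LS1, which means that *Psmb8* had more reads than *Psmb5* in LS1 replicate 2 and fewer in the other 5 libraries. The ratios are not scaled to length. As RPKM, *Psmb8* (18.6) was below *Psmb5* (31.8) in LS1 replicate 2 too. That order depends on the merged exon lengths, 3381 bases for *Psmb8* and 899 for *Psmb5*, which can exceed the length of the RNA present. *Psmb9* over *Psmb6* was 0.122, 0.119 and 0.0953 in Control and 0.251, 0.854 and 0.128 in LS1. This ratio was higher in every LS1 library, by 1.44 on the log2 scale (exact permutation p = 0.1, adjusted over the 6 ratios 0.3). *Psmb10* over *Psmb7* was 0.287, 0.336 and 0.391 in Control and 0.564, 0.940 and 0.312 in LS1. For *Psmb8* and *Psmb10* the log2 differences were 0.76 and 0.71 (exact permutation p = 0.3 for each, adjusted 0.4). Without LS1 replicate 2 the log2 differences were 0.13 for *Psmb8*, 0.69 for *Psmb9* and 0.32 for *Psmb10*, and without LS1 replicate 3 they were 1.25, 2.05 and 1.12.

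None of the constitutive partners passed in limma. They had log2 fold changes of 0.03 ± 0.17 for *Psmb5*, -0.22 ± 0.15 for *Psmb6* and 0.10 ± 0.18 for *Psmb7* (limma, adjusted p-values 0.962, 0.555 and 0.861). *Psmb6* stood at 6796 and 6474 normalized counts in LS1 replicates 1 and 2, below its range of 7535 to 9727 in Control, so the ratio of *Psmb9* to it was higher there on both sides.

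*H2-D1* over *H2-K1* was 3.45, 3.58 and 2.45 in Control and 2.16, 1.55 and 2.17 in LS1. It was lower in every LS1 library than in any of Control, with a log2 difference of -0.69 (exact permutation p = 0.1, adjusted 0.3). The ratio was thus low in LS1 replicate 3 too, where neither *H2-K1* nor *B2m* was much above Control. Both heavy chain counts carry the limits of mapping given above. *Tap1* over *Tap2* was 1.42, 1.50 and 1.09 in Control and 2.98, 2.71 and 1.07 in LS1, a log2 difference of 0.63 (exact permutation p = 0.4, adjusted 0.4). The summed heavy chains over *B2m* were 4.45, 5.49 and 3.18 in Control and 3.24, 3.84 and 3.28 in LS1, which overlapped (log2 difference -0.31, exact permutation p = 0.4, adjusted 0.4).

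**Figure D3:**
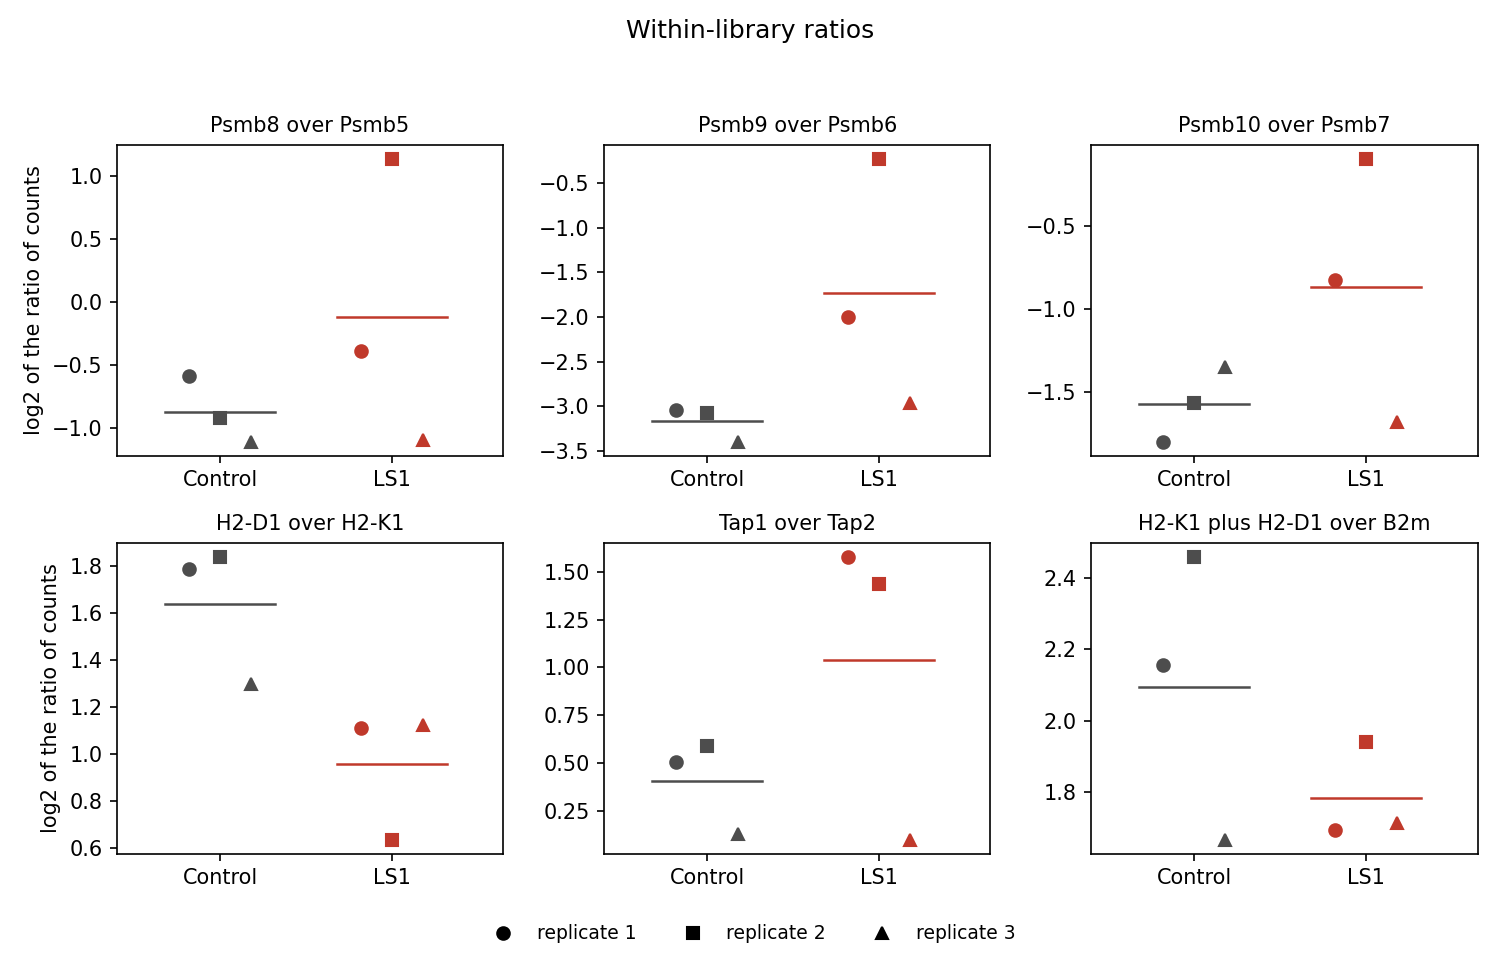
The 6 ratios within each library on a log2 scale, with a line at each group mean. *Psmb9* over *Psmb6* is higher and *H2-D1* over *H2-K1* is lower in every LS1 library than in any Control library, and the other 4 ratios overlap between groups.

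Genes with related roles were followed in lists. Of 15 other class I heavy chains, 14 were in the table and 13 had enough reads. All 13 had a positive log2 fold change (median 0.87), 0 passed the adjusted threshold, 3 had every LS1 library above Control (10.3% of all genes), and 11 were at least 1 log2 unit above the Control mean in LS1 replicate 2 (4.35% of all genes). In DESeq2 1 of the 13 was called (2.36% of all genes in either direction). The lowest was *H2-T24*, at 0.18 ± 0.24, and the highest *H2-T3*, at 1.84 ± 0.99 but with at most 64.4 normalized counts. These genes share sequence with *H2-K1* and *H2-D1*, and reads could be assigned among them. The 5 tested class I-like molecules, which do not present peptides in the classical way, had a median of 0.09, from *Cd1d1* (0.03 ± 0.13) to *Procr* (0.38 ± 0.22), and 0 of 5 were at least 1 log2 unit up in any LS1 library.

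For peptide loading and trimming the median over 15 genes was 0.23 on the log2 scale, with 0 called in limma. DESeq2 called 1 of the 15 (2.36% of all genes in either direction). *Tapbpl*, a tapasin relative, was highest at 0.83 ± 0.39, with 902.0, 804.9 and 822.9 normalized counts in Control and 1124, 3081 and 971.9 in LS1. *Thop1*, a peptidase that destroys peptides, was lowest at -0.27 ± 0.17. The other 14 core subunits and assembly factors of the proteasome had a median of 0.09, from *Psmg2* (-0.38 ± 0.15) to *Psma5* (0.49 ± 0.18). Of the activators, *Psme1* (0.43 ± 0.19) and *Psme2* (0.42 ± 0.25), whose products form the interferon-inducible PA28 cap, were above *Psme3* (-0.04 ± 0.14) and *Psme4* (0.01 ± 0.15), and none passed.

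Among 17 transcription factors of class I genes the median was 0.07, and 0 passed in limma. DESeq2 called 1 of the 17 (2.36% of all genes in either direction). *Rela*, a subunit of NF-kappaB, was lowest at -0.17 ± 0.17. *Irf1*, named after its values were seen, had 3151, 3019 and 3420 normalized counts in Control and 6047, 15754 and 2851 in LS1. The order of LS1 libraries in *Irf1* was that of *Nlrc5*, with replicate 2 highest, but replicate 3 was below every Control library. The RFX and NF-Y subunits, which hold NLRC5 on class I promoters, were at -0.17 to 0.07.

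Of the interferon genes, *Ifng* had 11.1, 0 and 8.85 normalized counts in Control and 113.3, 221.9 and 6.53 in LS1. Few reads lie behind these values in the low libraries (11, 0 and 8 reads in Control, 7 in LS1 replicate 3). The log2 fold change of *Ifng* was 3.55 ± 1.52 and did not pass (limma, adjusted p-value 0.398), nor did DESeq2 call it (adjusted p-value 0.178). *Ifnb1*, *Ifna4*, *Ifnl2* and *Ifnl3* had at most 4 reads in any library and were not tested. The receptors and kinases had a median of 0.13, between *Tyk2* (-0.15 ± 0.17) and *Jak2* (0.33 ± 0.14). The 12 effectors known from type I interferon had a median of 1.60, from *Rsad2* (0.57 ± 0.30) to *Rtp4* (2.46 ± 0.99). Of these 12, 10 lay at least 1 log2 unit above the Control mean in the first LS1 library (4.03% of all genes), 11 in the second (4.35%) and 0 in the third (2.55%), and none passed the adjusted threshold in limma. DESeq2 called 3 of the 12 (2.36% of all genes in either direction).

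Markers of blood cells were followed in the same libraries. In bulk RNA, a change in the number of cells of a type and a change in RNA per cell cannot be told apart. The 12 T and NK cell markers summed to 2123 to 2716 normalized counts in Control and to 3564, 8278 and 3256 in LS1 replicates 1 to 3. Of these 12, 4 lay at least 1 log2 unit above the Control mean in the first LS1 library, 9 in the second and 0 in the third, beside the same shares of all genes. None was at 0 in all libraries. *Cd8a*, of cytotoxic T cells, was highest in fold change, at 9.08, 29.9 and 28.8 normalized counts in Control and 140.9, 568.3 and 19.6 in LS1, *Nkg7* was the most abundant, at 505.5 to 676.9 in Control and 684.7, 1843 and 943.0 in LS1, and *Klrb1c* was lowest at -0.30 ± 0.25. The macrophage markers summed to 80935 to 115432 in Control and 128794, 149067 and 126493 in LS1. *Lyz2*, the most abundant, carried much of these sums, at 42339 to 63506 in Control and 71969, 80827 and 77487 in LS1. It was the 1 marker of the 10 with every LS1 library above Control (10.3% of all genes). *Mpeg1* (1.10 ± 0.34) and *Cd163* (-0.44 ± 0.23) were at the ends of the list. The dendritic cell markers summed to 3538 to 3931 in Control and to 4137, 5798 and 4608 in LS1. Against these, the B cell markers summed to 46511 to 49919 in Control and 35585, 29035 and 45796 in LS1, lowest in the library where the class I genes were highest. No marker in these 4 lists passed the adjusted threshold in limma. DESeq2 called 3 of the 12 T and NK cell markers higher, and 1 each of the macrophage and dendritic cell markers. It called 1 B cell marker lower, where 2.36% of all genes were called in either direction. The part of these cell types in the class I values was not tested.

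**Figure D4:**
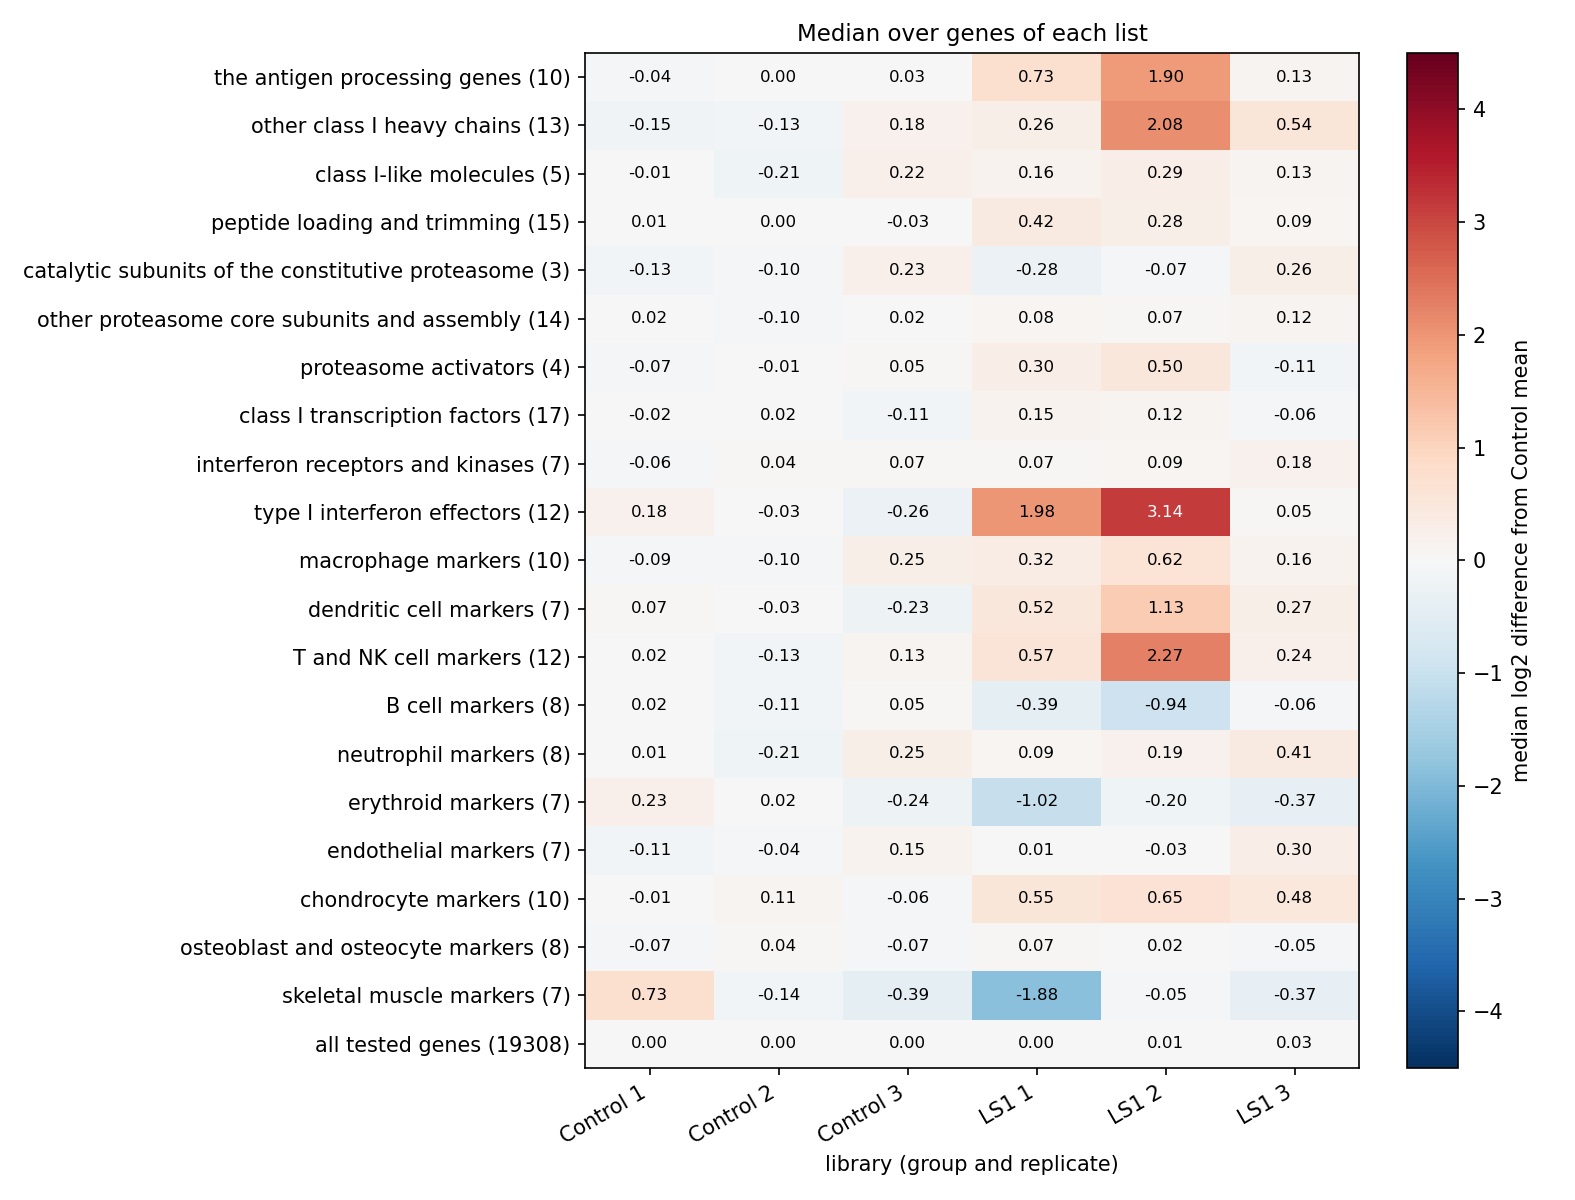
Median over the tested genes of each list (number of genes in parentheses) of the log2 difference from the Control mean, in each of the 6 libraries. The class I genes (1.90), the other heavy chains (2.08), the type I interferon effectors (3.14) and the T and NK cell markers (2.27) are high in LS1 replicate 2, the constitutive catalytic subunits (-0.07) and the endothelial markers (-0.03) are not, and the B cell markers (-0.94) are low there.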

How the data were processed

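RNA was measured in 6 libraries, 1 per mouse, from polyadenylated RNA read on a 5500xl instrument. The authors mapped the reads to GRCm38 (Ensembl release 84) with HISAT2 2.0.2, counted them with featureCounts 1.4.6 and used DESeq2, per the methods and the submitters' processing notes. The deposited values are of the unit signal, namely counts scaled with 1 size factor per library. Reads were recovered by dividing by the value of 1 read (100% whole within 0.01). In Control replicate 1 this value was 1.00898, close to 1, and the unit check alone did not settle whether reads had been recovered. Dividing by it still gave 100% whole reads. The values themselves were not whole, as for *Nlrc5*, at 215.9 normalized counts from 214 reads in that library. GENCODE M21 (GRCm38) gave symbols and positions, and RefSeq the promoters.

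Groups were compared by limma 3.58.1 (R 4.3.3) using log2(value + 1), a mean-variance trend and robust moderation over 19308 genes with a mean of at least 20 reads. Fold changes on this scale understate those of low genes. Adjustment followed Benjamini and Hochberg over all tested genes (threshold 0.05), and p-values measure the spread between mice of different families. edgeR 4.0.16 and DESeq2 1.42.0 on the recovered reads, other scalings, filters and pseudocounts, a replicate block and each library left out were alternatives. On simulated data for this comparison with 19308 genes, limma recovered 45% of genes changed by 1 log2 unit and 92% of those changed by 2. Of the calls on these data, 6.16% were false with limma, 6.90% with edgeR and 18.7% with DESeq2 (35 of 187). In that simulation the false share of DESeq2 was thus above the threshold of 0.05. The genes were drawn independently there, and limma made 146 calls, against 14 on the real libraries. These shares therefore need not hold for the real libraries, and the weight of the DESeq2 calls given here is not settled. The genes and lists were chosen with earlier results of these data known. Named from each list were the genes with the highest and lowest fold change, all of lists of up to 4, the most abundant marker of a marker list, and the 5 genes outside all lists most like the class I mean profile. 1 gene that this rule names is not reported here.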

Additional observations from a re-analysis of the deposited data

How the results depend on the processing

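Over 21 alternatives, 3 of them (edgeR and DESeq2 without Control replicate 1, and log2 *Ddx3y* as a covariate) chosen after seeing the data, 9 of the 10 genes kept a positive log2 fold change. The exception was *Tapbp*, at -0.056 without LS1 replicate 2 and up to 0.78 without LS1 replicate 3. The count of the 10 genes past the threshold was 0 in limma, 1 with DESeq2 (*B2m*, log2 fold change 1.05), 0 with DESeq2 without Control replicate 1 and 0 to 2 when each library was left out, 2 being without LS1 replicate 3 (*H2-K1* 1.62 and *B2m* 1.35). The median of the 10 genes ranged from 0.40 to 1.26 when each library was left out, and the 6 ratios kept their sign under both other pseudocounts and each omission. Their sizes moved, however: over the omissions the log2 difference ran from 0.13 to 1.25 for *Psmb8* over *Psmb5*, 0.69 to 2.05 for *Psmb9* over *Psmb6* and 0.32 to 1.12 for *Psmb10* over *Psmb7* (LS1 replicates 2 and 3 left out), 0.36 to 1.10 for *Tap1* over *Tap2* (LS1 replicates 1 and 3), -0.86 to -0.52 for *H2-D1* over *H2-K1*, and -0.52 to -0.13 for the heavy chains over *B2m* (Control replicates 3 and 2). Over all genes, the 14 calls of limma became 7 with edgeR, 456 with DESeq2, 8 with voom, 45 without a filter on reads, 9 at a mean of at least 100 reads, 7 without robust moderation, 8 with *Ddx3y* as a covariate, and 5 with edgeR and 242 with DESeq2 without Control replicate 1. Leaving out a library gave 5 (without Control replicate 2) to 324 (without LS1 replicate 3), with 46 without LS1 replicate 1 and 9 without Control replicate 1. The cause of these shifts was not tested. The titles share the letters A, B and C between groups. Deviations of same-letter libraries from their group means correlated at 0.054, 0.021 and 0.224 over 19308 genes (letters A, B and C). Between libraries of different letters they correlated at -0.147 to 0.116. The C pair was thus the highest, while the A and B pairs lay within the range of different letters. The letters were not taken to pair the mice. With the letter as a replicate block, 12 genes and 0 of the 10 passed. Depth, 68803249 reads or more in each library, limits *Ifng* and *H2-T3* more than the 10 genes, and groups of 3 mice limit all of them.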

Other observations

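*H2-D1* was lowest in the third replicate of each group, the libraries whose titles begin with C (29806 and 30363 normalized counts against 44285 to 87147 in the other 4). *H2-M2*, a nonclassical heavy chain, was highest in the same 2 libraries, at 96.2 and 88.6 normalized counts against 22.2 to 37.1. *H2-T3* (24.3 and 35.4 against 1.01 to 7.76 in 3 of the others) and *H2-Q10* (1045 and 1150 against 396.5 to 496.1 in 3 of the others) were high in these libraries as well, but were higher still in LS1 replicate 2, at 64.4 and 2610. These genes were picked after their values were seen, and the labels do not say what the letter stands for. Reads can be assigned among class I copies, and alleles unlike the reference can change the counts of a mouse. Neither was tested.

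The cartilage markers did not follow the class I genes. They were above Control to a like degree in all 3 LS1 libraries (medians 0.55, 0.65 and 0.48 on the log2 scale), with every LS1 library above Control for 7 of 10 (10.3% of all genes), and with *Hapln1*, a link protein of the cartilage matrix, highest at 0.94 ± 0.20. None of the 10 passed the adjusted threshold in limma, and DESeq2 called 5 (2.36% of all genes in either direction). The skeletal muscle and erythroid markers were lowest in LS1 replicate 1, with medians of -1.88 and -1.02, where *Slc4a1* of red cells stood at 73502 normalized counts against 128854 to 179853 in Control.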
